A study of Homo sapiens with 24 samples.

Results

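The miR-320 family and miR-484 were described in small RNA libraries of OV90 cells, a line long in use that was derived from epithelial ovarian cancer. The members were the 7 mature miRNAs of these names among the 2656 in the deposited table, hsa-miR-320a-3p, hsa-miR-320a-5p, hsa-miR-320b, hsa-miR-320c, hsa-miR-320d, hsa-miR-320e and hsa-miR-484, written below without the species prefix. The 24 libraries formed 6 groups of 4 replicates, in which OV90 cells carried a doxycycline-inducible shRNA against RELA (shRELA), against RELB (shRELB) or a negative control shRNA (shNeg), each grown as an adherent layer or as spheroids. Every group received 1 µg/ml doxycycline for 72 h, and shNeg samples carry the genotype label Wildtype. Spheroids were grown on ultra-low attachment plastic in a serum replacement medium with EGF and FGF and adherent cells in medium with fetal calf serum, so that growth form and medium cannot be told apart. All groups came from 1 cell line. Small RNA libraries do not read mRNAs, so the degree of RELA and RELB silencing was not checked in them. Per the study, Western blots of OV90 cells showed the knockdown.

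Most miRNAs are cut in the nucleus by the Microprocessor (Drosha with DGCR8), which frees the hairpin from a long transcript, and then in the cytoplasm by Dicer. The hairpins of miR-320a and miR-484 are the best known exceptions. Their transcripts are short, carry a 5′ cap and are handed to Dicer without a Drosha cut, whereas mirtrons, another Drosha-independent class, are released from introns by splicing. The other miR-320 members are grouped with miR-320a by sequence, and how their hairpins are made was not measured in these libraries, which hold mature miRNAs only. RELA and RELB are the NF-κB subunits of the classical and the alternative pathway.

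The mature sequences are shown because miR-320b to miR-320e are near-identical, while miR-484 is unrelated in sequence. RefSeq held 5 of the 7 members. No match was found for miR-320a-3p and miR-320a-5p, so their sequences and seeds were not compared with the others. The 5 sequences are given 5′ to 3′ with the seed, bases 2 to 8, in capitals.
miR-320b: aAAAGCUGgguugagagggcaa
miR-320c: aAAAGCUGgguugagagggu
miR-320d: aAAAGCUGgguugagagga
miR-320e: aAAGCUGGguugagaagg
miR-484: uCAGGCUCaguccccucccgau
miR-320b, miR-320c and miR-320d shared the seed AAAGCUG. Counted from the 5′ end of miR-320b, the only substitution in miR-320c was C20U and the only substitution in miR-320d was G19A, so miR-320b and miR-320c had 19 bases in common and miR-320b and miR-320d had 18. miR-320e began 1 base later and carried G17A, which moved its seed to AAGCUGG. Among the other miRNAs with a sequence, only miR-4429 had the seed of miR-320b, at a mean of 8.72 CPM, counts scaled to a common library size by edgeR's TMM method, over the 24 libraries. GC content was 50% in miR-320b, miR-320c and miR-320e, 47.4% in miR-320d and 63.6% in miR-484.

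The hairpins were scattered over the genome (GRCh38.p14). miR-320b is encoded by MIR320B1 at chr1:116671746-116671817 on the plus strand, which overlaps no other annotated gene, and by MIR320B2 at chr1:224257040-224257110 on the minus strand, in an intron of NVL on the same strand. miR-320c is encoded by MIR320C1 at chr18:21683518-21683589 and MIR320C2 at chr18:24321675-24321746, both on the plus strand and opposite to introns of ABHD3 and OSBPL1A. miR-320d is encoded by MIR320D1 at chr13:40727816-40727887 and MIR320D2 at chrX:140926160-140926231, both on the minus strand and outside other genes. miR-320e comes from MIR320E at chr19:46709282-46709354 on the minus strand, in an intron of PRKD2 on the same strand. MIR484 lies at chr16:15643294-15643372 on the plus strand, in an exon of NDE1 on the same strand. The printed miR-320 sequences sit on the 3′ arm of their hairpins and miR-484 on the 5′ arm. How reads that fit several members were assigned is not given in the sources used here. Counts of miR-320b, miR-320c and miR-320d, each with 2 hairpins, were not whole in 15, 14 and 13 of the 24 libraries and were then multiples of 0.5, while the other 4 members were whole in every library. Because the assignment of reads that fit several members is not given, the split among miR-320a-3p to miR-320e is uncertain. The family is therefore also given as a sum.

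Library totals were 3797175 to 8283549 counts in adherent culture and 959141 to 3580931 in spheroid culture, so depth and culture cannot be told apart. Spheroid shNeg replicate 1 stood apart, where only 432 miRNAs had a count and replicates 2 to 4 of that group had 813 to 885, and results that rest on it are given with and without it. edgeR's quasi-likelihood test was run in a single fit of the 24 libraries. A miRNA entered it when 4 or more libraries reached 1 CPM, which left 905 miRNAs, all 7 members among them. A miRNA was called where its false discovery rate (FDR) was under 0.01 and its level differed by more than 2-fold either way. The labels do not say that replicates came from separate cultures, so p-values measure only the spread between these samples, which may be technical. Because these are bulk libraries, fewer cells of a type and less RNA per cell cannot be told apart.

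The members differed between spheroid and adherent culture in opposite directions. With shNeg, 5 members rose in spheroids and miR-484 fell, so that 6 of 7 were called against 42.2% of all miRNAs tested. hsa-miR-320a-3p, the guide strand of the family's best known hairpin, was at 8855, 6200.1, 8244 and 9428 CPM in the 4 adherent shNeg libraries and at 21567, 43678, 39604 and 33035 CPM in the 4 spheroid shNeg libraries. The groups did not overlap, as was the case for 47.5% of all miRNAs, and the spheroid library nearest to the adherent ones was replicate 1. The log2 fold change was 2.07 ± 0.20 (SE, n = 4 against 4, edgeR FDR 9.38e-11), a 4.21-fold difference with an interval of 2 SE from 3.20 to 5.55. It was 2.24 without replicate 1.

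miR-320a-3p was also higher in spheroids with shRELA and with shRELB. Means were 9584 ± 1117 CPM (SD, n = 4) in adherent and 36773 ± 5607 CPM in spheroid shRELA cells, and 11205 ± 1620 and 36969 ± 9118 CPM with shRELB. The log2 fold changes were 1.94 ± 0.20 (SE, edgeR FDR 1.11e-09) with shRELA and 1.72 ± 0.20 (FDR 1.23e-08) with shRELB. With shRELA, 6 members were called against 32.6% of all miRNAs tested, and with shRELB, 6 against 25.0%. Over the 6 groups the means rose in the order adherent shNeg, shRELA and shRELB, then spheroid shNeg, shRELA and shRELB. Between the cultures, 46.3% of all miRNAs did not overlap with shRELA and 41.5% with shRELB. Within each culture every pair of neighbours in that order overlapped, and the 12 adherent libraries, at most at 13208 CPM, all lay below the 12 spheroid libraries, at least at 21567 CPM.

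**Figure D1:**
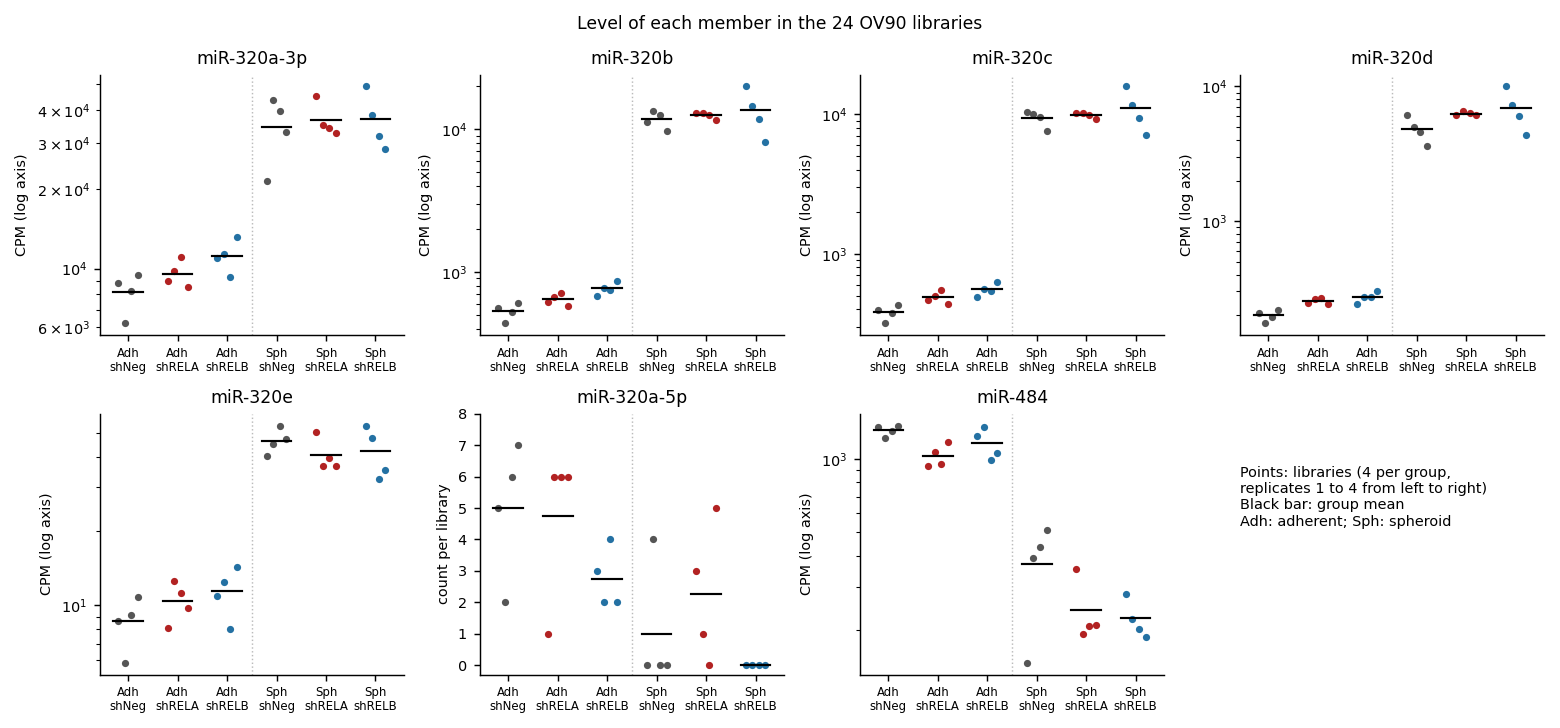
Level of each member in the 24 libraries, in CPM on a log axis or, for miR-320a-5p, as counts, with 1 point per library and a bar at the mean of each group of 4. The spheroid libraries of miR-320a-3p to miR-320e lie above all adherent libraries, those of miR-484 lie below them, and miR-320a-5p stays at 7 counts or fewer.

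The near-identical miR-320b, miR-320c and miR-320d rose further. hsa-miR-320c was at 398, 317, 379 and 429 CPM in adherent shNeg and at 10301, 10059.7, 9551 and 7561 CPM in spheroid shNeg libraries. No library of either group came near the other, and miR-320c had the lowest FDR of all 905 miRNAs in this comparison, with a log2 fold change of 4.62 ± 0.21 (SE, edgeR FDR 1.27e-18). miR-320b averaged 531 ± 72.0 CPM in adherent and 11738 ± 1631 CPM in spheroid cells (SD, n = 4), which gave a log2 fold change of 4.46 ± 0.21 (FDR 2.22e-18). miR-320d went from 199 ± 19.8 to 4815 ± 1050.5 CPM, a log2 fold change of 4.59 ± 0.22 (FDR 1.71e-18). In the knockdown cells the culture difference of these 3 members lay between 4.15 and 4.65 on the log2 scale. miR-320b in shRELB cells had the lowest value, 4.15 ± 0.21, and miR-320d in shRELB cells the highest, 4.65 ± 0.22. Their spread in spheroids was widest with shRELB, where miR-320b was at 19954, 14534, 11786 and 8092 CPM, and narrowest with shRELA, where it was at 12979.6, 12923, 12553 and 11651 CPM.

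The make-up of the family also differed between the cultures. miR-320a-3p to miR-320e together took 0.704% to 1.56% of the counts of the adherent libraries (median 1.01%, n = 12) and 4.67% to 9.86% of the spheroid libraries (median 6.60%, n = 12). miR-320a-3p made up 85.5% to 88.5% of the family in adherent and 43.8% to 61.2% in spheroid libraries. For every 100 counts of miR-320a-3p there were 6.17 to 8.07 of miR-320b in adherent and 28.5 to 52.0 in spheroid libraries. miR-320c gave 4.50 to 5.85 and 22.5 to 47.8, and miR-320d gave 2.23 to 2.96 and 10.8 to 28.4. All 3 ratios were highest in spheroid shNeg replicate 1, without which the spheroid shNeg libraries held 29.5 to 31.6 of miR-320b, 22.9 to 24.1 of miR-320c and 10.8 to 11.6 of miR-320d per 100 of miR-320a-3p. These ratios within a library do not depend on the scaling between libraries, and were not tested. They may depend on how reads that fit several members were assigned, which is not given. miR-320e was the exception, at 0.0869 to 0.128 per 100 counts of miR-320a-3p in adherent and 0.102 to 0.187 in spheroid libraries, ranges that overlapped.

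**Figure D2:**
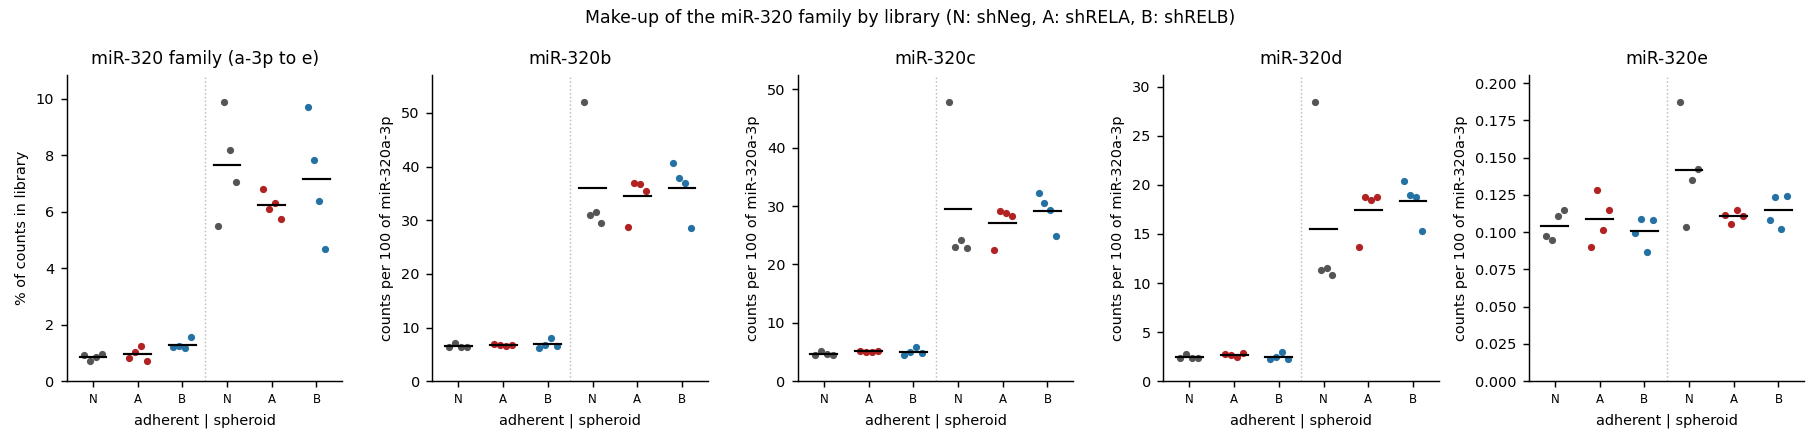
Share of each library's counts taken by miR-320a-3p to miR-320e (left, in %) and counts of miR-320b, miR-320c, miR-320d and miR-320e per 100 counts of miR-320a-3p, with 1 point per library and bars at group means. The first 4 panels separate the cultures, with spheroid shNeg replicate 1 highest in the panels of miR-320b, miR-320c and miR-320d, and the panel of miR-320e does not.

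A further difference lay between miR-320d and miR-320c, which differ at their 3′ ends. For every 100 counts of miR-320c, spheroid shNeg replicates 2, 3 and 4 held 49.4, 48.0 and 47.4 of miR-320d and replicate 1 held 59.5. The range was 60.6 to 66.3 in spheroid shRELA and 61.2 to 64.0 in spheroid shRELB libraries. All 12 adherent libraries lay between 48.2 and 55.3. This ratio was picked after its values were seen and was not tested.

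hsa-miR-320e, the member with the shifted seed, was rare. It was at 8.62, 5.87, 9.14 and 10.8 CPM in adherent shNeg and at 40.3, 45.1, 53.3 and 47.0 CPM in spheroid shNeg libraries, on 22 to 63 and 55 to 104 counts. The groups did not overlap, and the log2 fold change was 2.42 ± 0.27 (SE, edgeR FDR 3.74e-09). It was 1.96 ± 0.27 with shRELA (FDR 2.90e-07) and 1.88 ± 0.27 with shRELB (FDR 7.15e-07).

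miR-320a-5p, the other arm of the miR-320a hairpin, was close to the limit of detection. Counts were 5, 2, 6 and 7 in adherent shNeg, 1, 6, 6 and 6 in adherent shRELA and 3, 2, 4 and 2 in adherent shRELB libraries. In spheroids they were 0, 4, 0 and 0 with shNeg, 3, 1, 0 and 5 with shRELA and 0 in all 4 shRELB libraries. A count of 0 allows up to 3 counts, or 0.860 to 1.58 CPM in the shRELB spheroids, counting error only, which is above the level of the 2 to 4 counts in the adherent shRELB libraries. No fold change is given for so few counts. edgeR's quasi-likelihood test gave an FDR of 0.0473 for spheroid against adherent culture with shRELB, where the counts did not overlap, and 43.3% of all miRNAs had an FDR below 0.05 there. This was not a call, and with shNeg and shRELA the FDR was 0.768 and 0.877. The 3p arm had 23251 to 65591 counts in the adherent libraries and 29407 to 115475 in the spheroid libraries.

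hsa-miR-484 went the other way. It was at 1351, 1215, 1302 and 1365 CPM in adherent shNeg libraries and at 147, 392, 434 and 514 CPM in spheroid shNeg libraries. All 4 spheroid libraries lay below all adherent ones, with replicate 1 the lowest. The log2 fold change was -1.81 ± 0.25 (SE, edgeR FDR 1.27e-07), which put spheroids at 0.284 times the adherent level (0.202 to 0.400 within 2 SE). Without replicate 1 it was -1.55 ± 0.19 (FDR 1.11e-09). With shRELA, miR-484 went from 1030.2 ± 109 to 240.4 ± 76.0 CPM (SD, n = 4), with a log2 difference of -2.10 ± 0.25 (FDR 2.41e-08). With shRELB it went from 1157 ± 165 to 223 ± 41.2 CPM, -2.38 ± 0.25 (FDR 2.75e-09). The order of the means was spheroid shRELB, shRELA and shNeg, then adherent shRELA, shRELB and shNeg, and within each culture neighbours in that order overlapped.

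Canonical miRNAs were read from a list of 30 widely expressed miRNAs with Drosha-cut hairpins, such as let-7a-5p, miR-16-5p and miR-21-5p. In spheroids with shNeg, 20 of the 30 fell, against 20.9% of all miRNAs tested, and none rose, with a median log2 fold change of -1.55 against -0.26 over all 905 miRNAs. With library totals in place of TMM scaling, 15 fell and 1 rose, and without replicate 1, 20 fell. With shRELA 12 of 30 fell, against 15.8% of all miRNAs, and with shRELB 10, against 11.4%, with medians of -0.86 and -0.74, against 0.07 and -0.003 over all miRNAs. The value of miR-484, -1.81 with shNeg, lay inside the range of this list, -2.73 to 0.58, and those of miR-320a-3p to miR-320e lay above it. With shRELB the value of miR-484 lay below the range of the list, -2.15 to 0.55. Another list held 14 mirtron products, of which 6 passed the filter. With shNeg, 4 of the 6 rose, against 21.3% of all miRNAs, and miR-877-3p fell, a call that was lost with either other scaling. With shRELA 2 of the 6 rose, against 16.8%, and with shRELB 3 rose, against 13.6%, and miR-877-3p fell in both (log2 fold changes -1.61 and -2.75), though not with shRELA under library totals. With shNeg, miR-877-5p, the other arm of the same hairpin, went from a mean of 93.4 to 488 CPM (log2 fold change 2.39, FDR 4.48e-13), and miR-1224-5p went from 1.99 to 191 CPM (6.56, FDR 6.41e-12). These 3 were named after their values were seen. Without spheroid shNeg replicate 1, 3 mirtron products rose and none fell with shNeg. The lists were chosen with earlier results of these data known, and no test compared them.

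**Figure D3:**
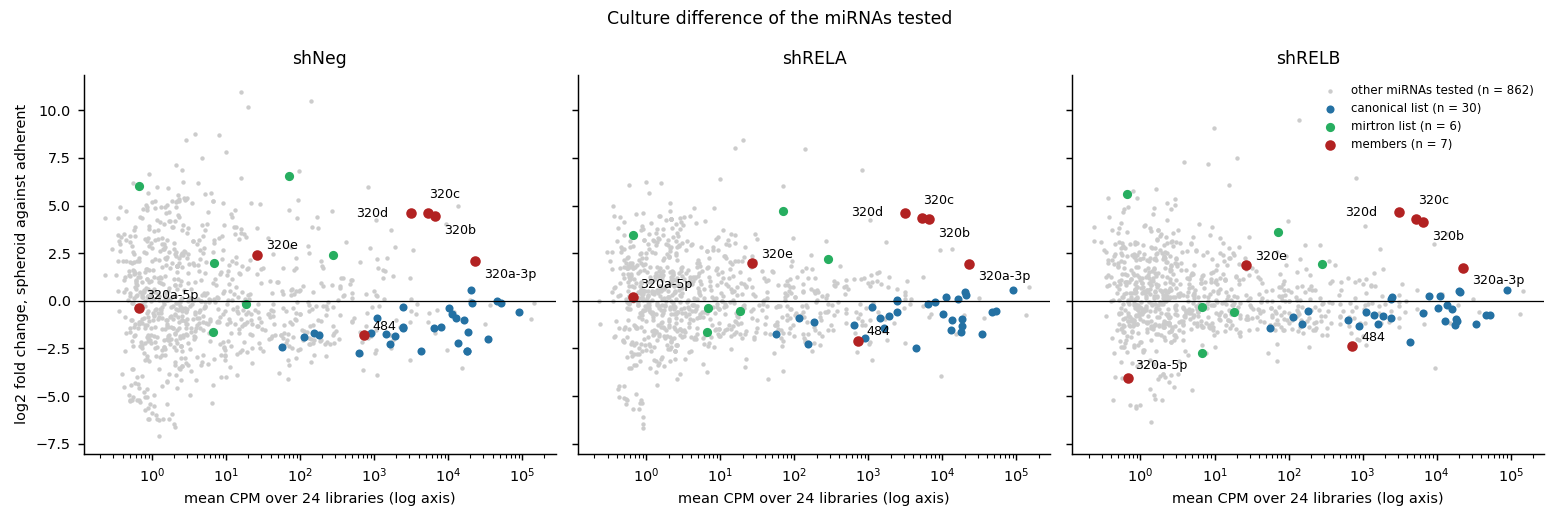
Log2 fold change of spheroid against adherent culture for the 905 miRNAs tested, against mean CPM over the 24 libraries on a log axis, with shNeg, shRELA and shRELB in separate panels. The labelled members miR-320a-3p to miR-320e lie above the canonical list in each panel, and miR-484 lies within it with shNeg and shRELA and below it with shRELB.

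Culture differences varied with base composition across all miRNAs. Of the 905 tested, 795 had a sequence. With shNeg the median log2 fold change was -1.58 in the 287 miRNAs with a GC content under 50%, of which 3.14% were called higher in spheroids. It was -0.006 in the 278 from 50% to under 60%, of which 20.5% were called higher, and 1.67 in the 230 at 60% or more, of which 43.9% were called higher. The medians of the 3 classes were -1.05, 0.44 and 1.08 with shRELA and -0.74, 0.16 and 1.01 with shRELB. The shares called higher were 5.92%, 22.7% and 23.9% with shRELA and 3.48%, 15.5% and 23.9% with shRELB. With shNeg, miR-320d, in the lowest class, rose and miR-484, in the highest, fell, each against the median of its class. The part of GC content in the members' values was not tested.

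Neither knockdown moved a member past the threshold in adherent culture. The knockdown groups were each set against the same 4 shNeg libraries. With shRELA, 0 of 7 members were called against 3.76% of all miRNAs tested, and 0 had an unadjusted p under 0.05 in edgeR's quasi-likelihood test. In each of the 4 knockdown comparisons, DESeq2 and limma also called 0 members. miR-320a-3p was at 8983, 9799.9, 11053 and 8498 CPM, overlapping shNeg, with a log2 fold change of 0.23 ± 0.19 (SE) and a fold interval of 2 SE from 0.899 to 1.53. miR-320c, miR-320d and miR-484 did not overlap with shNeg, as was the case for 20.7% of all miRNAs. miR-484 was at 933, 1068, 953 and 1166 CPM, all below the lowest shNeg library at 1215 CPM, with a log2 fold change of -0.34 ± 0.24 (edgeR FDR 0.478).

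With shRELB in adherent culture, 0 of 7 members were called against 7.07% of all miRNAs, and 4 had an unadjusted p under 0.05. The share of all miRNAs with an unadjusted p under 0.05 was not counted in any comparison. Whether 4 of 7 is unusual therefore cannot be told. miR-320b, miR-320c and miR-320d lay above shNeg without overlap, where 33.1% of all miRNAs did not overlap. miR-320c was at 493, 559.9, 542 and 633 CPM against 317 to 429 CPM with shNeg. Its log2 fold change, 0.55 ± 0.18 (SE), had an edgeR FDR of 0.0388, which passed an FDR of 0.05 with no fold limit, as did 12.7% of all miRNAs. miR-320a-3p, at 10951, 11393, 9267 and 13208 CPM, had 0.45 ± 0.19 (FDR 0.119), and miR-484 had -0.18 ± 0.24 (FDR 0.707).

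In spheroids the knockdowns left miR-320a-3p, miR-320b and miR-320c near the shNeg level. With shRELA, 0 of 7 members were called against 15.1% of all miRNAs, and with shRELB, 0 against 13.4%. An unadjusted p under 0.05 was reached by 2 and 3 members, and the share of all miRNAs reaching it was not counted. miR-320a-3p was at 45084, 34949.7, 34203 and 32858 CPM with shRELA and at 49163, 38392, 31891 and 28430.1 CPM with shRELB, both overlapping the 21567 to 43678 CPM of shNeg. Its log2 fold changes were 0.09 ± 0.19 (SE, edgeR FDR 0.755) and 0.10 ± 0.19 (FDR 0.736), with fold intervals of 2 SE from 0.819 to 1.39 and from 0.823 to 1.40. The direction of these small values turned with the scaling. With library totals they were -0.33 and -0.19, beside -0.25 and -0.09 for the median of all miRNAs.

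Leaving aside miR-320a-5p with its few counts, miR-320d and miR-484 had the largest log2 fold changes in the spheroid knockdowns. miR-320d was at 6125, 4965, 4586 and 3583 CPM with shNeg and at 6141, 6550.3, 6306 and 6173 CPM with shRELA. These groups were separated by the margin between 6125 and 6141 CPM, where 22.5% of all miRNAs did not overlap, and the log2 fold change was 0.39 ± 0.19 (SE, edgeR FDR 0.118). With shRELB it was at 10006, 7286, 5986 and 4341 CPM, which overlapped shNeg, where 17.3% of all miRNAs did not, and the log2 fold change of 0.52 ± 0.19 had an FDR of 0.0355. The 6125 CPM library was spheroid shNeg replicate 1, without which the values were 0.52 ± 0.18 (FDR 0.0234) and 0.66 ± 0.18 (FDR 0.00385), neither a call. miR-484 was at 354, 192, 207 and 208 CPM with shRELA, a log2 fold change of -0.63 ± 0.24 (FDR 0.0502), and at 281, 220.4, 202 and 187 CPM with shRELB, -0.74 ± 0.24 (FDR 0.0210). Both groups of miR-484 overlapped shNeg only through replicate 1, at 147 CPM. Without that library the values were -0.89 ± 0.18 (FDR 0.000117), just under the fold limit, and -1.01 ± 0.18 (FDR 1.70e-05), which was a call. At an FDR below 0.05 with no fold limit, miR-320d and miR-484 passed with shRELB, as did 26.4% of all miRNAs.

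**Figure D4:**
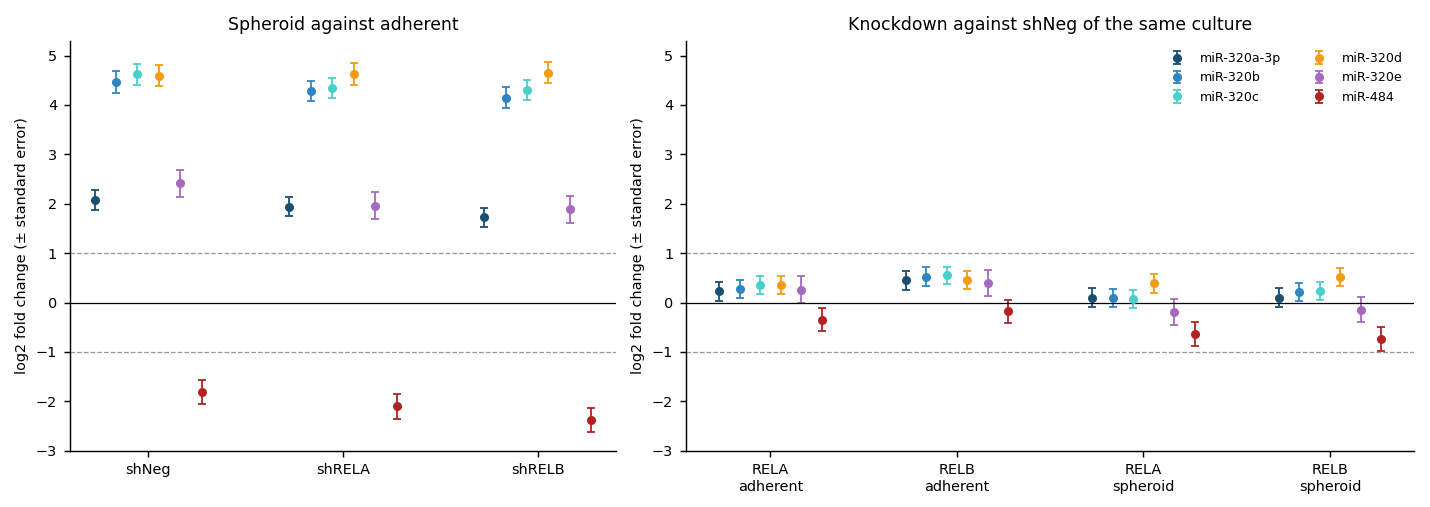
Log2 fold change with its standard error for 6 members, in spheroid against adherent culture (left) and in each knockdown against shNeg of the same culture (right), with dashed lines at a fold of 2 either way. All culture values lie outside the dashed lines and all knockdown values lie between them.

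Some canonical miRNAs changed with the knockdowns in spheroids. With shRELA 11 of the 30 rose, against 7.51% of all miRNAs tested, and none fell, with a median log2 fold change of 0.76 against 0.09 over all miRNAs and 0.09 over the 7 members. The largest values were 2.04 for let-7f-5p, 1.78 for miR-17-5p and 1.58 for let-7g-5p. The count depended on the scaling, with 7 rising under median-ratio size factors and 4 under library totals, and was 8 without spheroid shNeg replicate 1. With shRELB 5 rose, against 7.29% of all miRNAs, and miR-29a-3p fell, against 6.08%, with a median of 0.47, and with library totals 3 rose and 3 fell. In adherent culture none of the 30 was called with shRELA and only miR-29a-3p, which fell, with shRELB. Of the 6 mirtron products, miR-1224-5p and miR-1229-3p fell with shRELA in spheroids (log2 fold changes -2.07 and -2.58), and miR-1224-5p rose with shRELB in adherent cells (2.80). Without spheroid shNeg replicate 1, 1 mirtron product fell with shRELA in spheroids.

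Whether a knockdown's effect differed by culture was tested as an interaction. For RELA, 0 of 7 members were called against 7.62% of all miRNAs, and for RELB, 0 against 8.51%, with 0 members at an unadjusted p under 0.05 and 0 calls by DESeq2 or limma in either. Values for miR-320a-3p were -0.13 ± 0.27 (log2, SE, edgeR FDR 0.770) and -0.35 ± 0.27 (FDR 0.406), and for miR-484 -0.29 ± 0.34 (FDR 0.612) and -0.56 ± 0.34 (FDR 0.274). Without spheroid shNeg replicate 1 the RELB value of miR-484 was -0.82 ± 0.24 (FDR 0.0135). A positive value means that the knockdown's log2 fold change was higher in spheroids than in adherent culture. Of the 30 canonical miRNAs, 8 were called with a positive value for RELA, against 4.31% of all miRNAs, and 7 for RELB, against 4.64%. These counts were 1 and 5 with median-ratio size factors and 0 and 2 with library totals, where 2 were also called with a negative value for RELB. shRELB and shRELA cells were also set against each other, and 0 of 7 members were called in adherent culture, against 10.8% of all miRNAs, and 0 in spheroids, against 6.63%. An unadjusted p under 0.05 was reached by 0 and 1 of them, and the share of all miRNAs reaching it was not counted. The 1 was miR-320a-5p, which also had an FDR below 0.05, as did 16.1% of all miRNAs. DESeq2 and limma called 0 members. The largest value outside miR-320a-5p was 0.25 ± 0.19 for miR-320b in adherent culture (edgeR FDR 0.390).

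Ratios within a library compared members without any scaling between libraries. miR-320a-3p was 5.10 to 6.91 times as abundant in counts as miR-484 in adherent shNeg libraries and 64.3 to 147 times in spheroid shNeg libraries. The difference in mean log2 ratio was 4.0 with shNeg, 4.07 with shRELA and 4.08 with shRELB, and the cultures did not overlap in any of them. In adherent culture the ratio was 7.29 to 11.6 with shRELA and 8.46 to 12.5 with shRELB, both above all shNeg libraries, differences of 0.59 and 0.65. In spheroids it was 127 to 182 with shRELA and 152 to 175 with shRELB, differences of 0.66 and 0.73. The shRELA range overlapped shNeg only through spheroid shNeg replicate 1, at 147. Without that library the differences were 0.85 and 0.92.

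miR-30e-5p, a canonical miRNA, was used as the other reference. It was itself lower in spheroids, with log2 fold changes of -1.69 ± 0.20 (SE, edgeR FDR 1.06e-08) with shNeg, -1.97 ± 0.20 (FDR 1.36e-09) with shRELA and -1.32 ± 0.20 (FDR 2.30e-06) with shRELB, so a ratio to it holds its change as well as the member's. The log2 ratio of miR-320a-3p to miR-30e-5p was higher in spheroids by 3.76 with shNeg, 3.83 with shRELA and 3.03 with shRELB, without overlap. The log2 ratio of miR-484 to miR-30e-5p differed by -0.24 with shNeg (exact permutation p = 0.571, two-sided) and by -0.24 with shRELA (exact p = 0.343), and by -1.06 with shRELB (exact p = 0.0286). The shNeg value rested on spheroid shNeg replicate 1, which had 0.522 counts of miR-484 per count of miR-30e-5p where the other 3 libraries had 0.972 to 1.12, and was 0.0155 without it.

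The knockdown differences of the same ratios were smaller than those of miR-320a-3p between cultures. In adherent culture the log2 ratio of miR-484 to miR-30e-5p differed by -0.75 with shRELA, without overlap (exact p = 0.0286), and by -0.062 with shRELB (exact p = 0.543). In spheroids it differed by -0.75 with shRELA and by -0.88 with shRELB (exact p = 0.0571 each), and by -1.01 and -1.14 without spheroid shNeg replicate 1. The log2 ratio of miR-320a-3p to miR-30e-5p was higher by 0.58 with shRELB in adherent culture, without overlap (exact p = 0.0286). Its other knockdown differences were -0.16 with shRELA in adherent culture (exact p = 0.714), and -0.087 with shRELA (exact p = 0.8) and -0.15 with shRELB (exact p = 0.571) in spheroids. With 4 libraries against 4, 0.0286 is the smallest p the exact test can give, and after Benjamini-Hochberg adjustment over 28 ratio tests it became 0.0533. None of the 28 ratios therefore passed an adjusted p of 0.05 with all libraries. Without spheroid shNeg replicate 1, those that passed included miR-484 to miR-30e-5p and miR-320a-3p to miR-484 with either knockdown in spheroids. Between cultures with shNeg, they included miR-320a-3p to miR-30e-5p and to miR-484. Without replicate 3 of that group, these culture ratios passed, and so did miR-320a-3p to miR-484 with shRELB in spheroids.

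**Figure D5:**
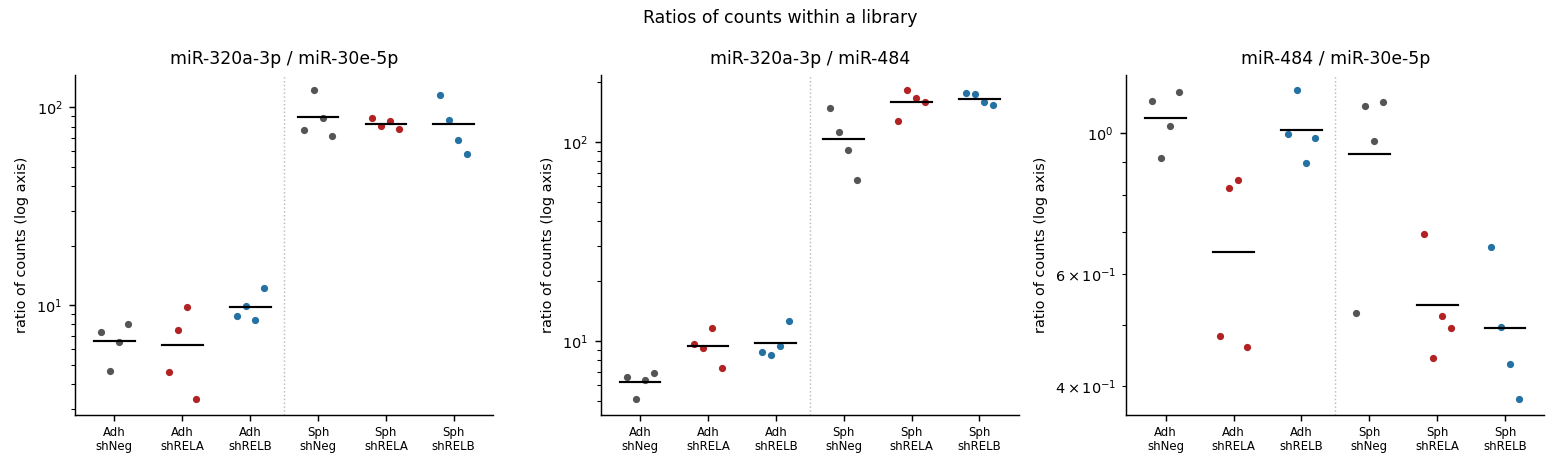
Ratios of counts within each library on log axes, with 1 point per library and bars at the mean of each group of 4. miR-320a-3p to miR-30e-5p and miR-320a-3p to miR-484 separate the cultures, while miR-484 to miR-30e-5p overlaps between the cultures with shNeg and with shRELA.

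Outside the members, 329 miRNAs averaged 10 CPM or more and were compared by Pearson's r of log2(CPM + 1) over the 24 libraries. Of these, miR-125a-3p (r = 0.98), miR-423-5p (0.96) and miR-324-3p (0.96) followed miR-320a-3p most closely. Among the members, miR-320b to miR-320e had an r of 0.97 to 0.98 with miR-320a-3p. Within the 12 adherent and the 12 spheroid libraries, r was 0.72 and 0.85 for miR-125a-3p, 0.93 and 0.03 for miR-423-5p and 0.91 and 0.69 for miR-324-3p. For miR-484 the closest outside the members were miR-1260a (0.94), miR-1260b (0.93) and miR-625-3p (0.91). Within the cultures their r was 0.53 and 0.69, 0.49 and 0.66, and -0.06 and 0.21. Between miR-320a-3p and miR-484 r was -0.85 over all libraries, -0.20 within adherent and 0.61 within spheroid libraries. These libraries share culture, depth and scaling, and the values over all 24 include the difference between the cultures.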

How the data were processed

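Small RNA was sequenced from 24 OV90 samples. Per the study's methods, the authors made libraries with a QIAseq miRNA kit, trimmed single-end NextSeq reads with Cutadapt and counted mature miRNAs with miRDeep2 against miRBase and GRCh38. Whether molecular identifiers were collapsed is not given in the sources used here. The authors deposited 1 table of estimated counts for 2656 miRNAs, titled as CPM but holding counts: it held fractional values for 84 miRNAs (3.04% of the values above 0), which were rounded for the fit.

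Columns were matched to samples by title. miRNAs reaching 1 CPM in 4 or more libraries, 905 in all, were fitted with edgeR 4.0.16 in R 4.3.3 (TMM scaling, quasi-likelihood test, the 6 groups as the only term, Benjamini-Hochberg FDR). CPM used TMM-scaled totals. Ratios within a library had 0.5 added to both counts and were compared by two-sided exact permutation tests. Alternatives were other scalings, filters and call rules, DESeq2 1.42.0, limma 3.58.1 on log2(CPM + 1), a replicate block, only the groups compared, another reference miRNA and each replicate left out. The scripts were tested on simulated data. Fold intervals extend 2 SE of the edgeR fit to each side. Limits for counts of 0 cover counting error only.

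The members, the canonical and mirtron lists and the tests were chosen with earlier results of these data known. The text names the members, miR-30e-5p, the 3 miRNAs outside the members most correlated with miR-320a-3p and with miR-484, and up to 3 called members of each list per knockdown comparison. It also names miR-4429 for its seed, miR-16-5p as another reference and examples of the canonical list. For the culture comparison it names 3 mirtron products, picked after their values were seen. Mature sequences, hairpin positions and strands come from RefSeq (GRCh38.p14), in which 5 of the 7 members matched, and overlapping genes from GENCODE.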

Additional observations from a re-analysis of the deposited data

Results flagged for a closer look

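In 41 groups of 4 libraries, the highest and lowest library of each member was tested for standing apart by Dixon's criterion, which chance meets in about 1 in 20 groups, and 3 did. miR-484 was at 354 CPM in spheroid shRELA replicate 1, where the other 3 libraries of the group were at 192 to 208 CPM. miR-320a-5p was at 0.165 CPM in adherent shRELA replicate 1, on 1 count where the others had 6. It was at 3.05 CPM in spheroid shNeg replicate 2, on 4 counts where the others had 0.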

How the results depend on the processing

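The culture differences of miR-320a-3p to miR-320e and miR-484 kept their direction and their call under every alternative run, with miR-320a-3p at 1.75 to 2.54 and miR-484 at -2.19 to -1.35 on the log2 scale with shNeg. The number of members called was within 1.5 times its main value in 203 of 209 alternatives. At an FDR below 0.05 with no fold limit it was 1 for RELB in adherent cells, 2 for RELB in spheroids and 1 for shRELB against shRELA in spheroids, in place of 0. The shares of all miRNAs there were 12.7%, 26.4% and 16.1%. With library totals the number of members called was 1 for RELA and 1 for RELB in spheroids (miR-484, -1.06 and -1.04), against 15.0% and 13.6% of all miRNAs. Over left-out replicates it was 0 to 1 for RELB in spheroids. The 1 was miR-484 without spheroid shNeg replicate 1, where 12.7% of all miRNAs were called. In spheroids, small values turned sign. For RELA, under median-ratio size factors, library totals, a mean of at least 10 CPM and DESeq2, miR-320a-3p was -0.0864, -0.33, -0.14 and -0.0865, miR-320b -0.0726, -0.31, -0.16 and -0.0727, and miR-320c -0.0885, -0.32, -0.19 and -0.0885. For RELB, miR-320a-3p was -0.0559, -0.19, -0.0773 and -0.0559, and with library totals miR-320b was -0.0581 and miR-320c -0.0319. Over left-out replicates the ranges for these 3 were -0.0764 to 0.22, -0.0198 to 0.16 and -0.0486 to 0.12 for RELA, and they were -0.0677 to 0.26 and -0.0339 to 0.37 for miR-320a-3p and miR-320b with RELB, and -0.29 to 0.0683 for miR-320e with RELB. With miR-16-5p as reference, the log2 ratio difference of miR-320a-3p for RELA in adherent cells was 0.0602, that of miR-484 for RELB in adherent cells 0.10 and that of miR-484 between cultures with shNeg 0.70. Over left-out replicates the ratio of miR-320a-3p to miR-30e-5p ranged from -0.41 to 0.10, -0.18 to 0.0725 and -0.33 to 0.0117 for RELA in adherent cells, RELA in spheroids and RELB in spheroids, and that of miR-484 from -0.35 to 0.0155 between cultures with shNeg. The cause was not tested. Scaling moved the median of all miRNAs between cultures with shNeg from -0.26 (TMM) to -0.14 (median-ratio) and 0.17 (library totals). Deviations of the 24 same-numbered pairs of libraries had a median correlation of 0.0266 (-0.524 to 0.360), against 0.00013 for the 72 other pairs. This does not settle whether replicate numbers pair the samples. The fit with the replicate block called 6 members in each culture comparison and 0 in each other comparison, and the share of all miRNAs called by it was not counted. Depth limits miR-320a-5p and miR-320e most.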
